A study of Mus musculus with 8 samples.

Results

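The genes described here are 10 immediate early genes, namely the zinc finger factors Egr1, Egr2 and Egr3, the orphan nuclear receptors Nr4a1, Nr4a2 and Nr4a3, and Ier2, Ier3, Arc and Btg2. They were taken by gene symbol, and all 12 of their probes were examined among the 25697 probes (18120 symbols) of Illumina MouseRef-8 v2 bead arrays. RNA came from wild-type STHdhQ7 cells, a conditionally immortalized line of mouse striatal neuronal progenitors taken from embryonic striatum, which were grown in medium with serum and G418. In the Bcl11b group (n = 4 sets of cells, 1 array each) the cells had been transfected with a pcDNA3.1 plasmid carrying mouse Bcl11b cDNA (the beta isoform of this zinc finger transcription factor), and in the mock group (n = 4), whose cells the labels call wild-type, with the empty pcDNA3.1 plasmid. Cells were harvested 2 days after transfection. The transfection was transient, so each sample can mix cells that took up the plasmid with cells that did not. The comparison asks how the expression of these genes differs when Bcl11b is overexpressed.

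Immediate early genes are transcribed within minutes of a stimulus such as serum, a growth factor, membrane depolarization or stress, without the need for new protein, and their mRNAs are usually short-lived. Many of them are switched on through serum response factor, which binds the CArG box, and through CREB, which binds the cyclic AMP response element. In striatal neurons, Egr1, Nr4a1 and Arc are widely used as markers of recent activity driven by dopamine and glutamate.

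Of the 10 genes, 5 gave a detectable signal (detection p-value under 0.01, set against control beads without a target). Egr1, Egr2, Ier3 and Arc were detected on all 8 arrays, and Nr4a2 on 1 array of each group. The remaining 5 genes, Egr3, Nr4a1, Nr4a3, Ier2 and Btg2, with 7 probes, were not detected on any array. None of the 12 probes differed between Bcl11b and mock cells at an adjusted p-value under 0.10, where 0.981% of all probes did (limma with Benjamini-Hochberg adjustment over the 25697 probes). None passed the looser threshold of the study either, an unadjusted p of 0.05 with a log2 change of at least 0.32 in either direction, where 9.02% of all probes did. The nearest was Arc, which was 1.24-fold higher in Bcl11b cells.

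Promoter sequence upstream of the annotated start was taken from a RefSeq table of the mouse genome (GRCm38.p6), which holds windows for 6 of the 10 genes. Egr1, Egr3, Ier2 and Arc have none there. Shown are the 3 detected genes with a window, each 5′ to 3′ on the strand of the gene. Ier3 and Nr4a2 have the 250 bases before the start, and Egr2 has 30 bases that begin with a CArG box. Capitals mark the CArG box, TGACG (a shorter part of the cyclic AMP response element TGACGTCA) and TGCTTG, or their reverse complements.
Ier3 (chr17:35821463-35821712, plus strand): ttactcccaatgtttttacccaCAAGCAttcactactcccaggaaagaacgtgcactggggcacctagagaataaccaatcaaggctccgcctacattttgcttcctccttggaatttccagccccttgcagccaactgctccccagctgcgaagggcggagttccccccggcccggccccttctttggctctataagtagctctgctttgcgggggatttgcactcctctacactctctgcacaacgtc
Nr4a2 (chr2:57124004-57124253, minus strand): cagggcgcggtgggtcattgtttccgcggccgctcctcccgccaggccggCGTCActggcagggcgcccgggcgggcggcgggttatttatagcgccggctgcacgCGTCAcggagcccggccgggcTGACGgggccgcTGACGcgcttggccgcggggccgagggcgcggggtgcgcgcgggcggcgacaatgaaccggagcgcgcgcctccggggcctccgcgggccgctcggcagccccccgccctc
Egr2 (chr10:67537797-67537826, plus strand): CCATATATGGgcagcgaCGTCAcgggtatt

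The windows searched hold the 250 bases before the annotated start and a short stretch after it. A CArG box was found in 1.63% of all 32851 windows and, among the 6 genes, only in Egr2, in 4 of its windows. Egr2 has several annotated starts, and 3 of the 4 windows overlap and share the box shown. The full element TGACGTCA was found in 1.79% of windows and, among the 6 genes, in Btg2 alone. Its shorter form TGACG, which the full element contains, was in 20.8% of windows and in every one of the 6 genes except Ier3. The Nr4a2 sequence shown holds 4 copies. An Egr site, GCGGGGGCG, was in 2.91% of windows and in the window of Nr4a1. Its variant GCGTGGGCG (0.612% of windows) was in none of the 6. Of 3 short sequences searched because the study connects them with Bcl11b, TGCTTG (16.4% of windows) was in Btg2, Egr2 and Ier3, whereas ACCACA (16.8%) and AGTGCT (15.4%) were in none of the 6. Both strands were searched, and a match describes the sequence of the window only.

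The array signals set the frame for the values that follow. The median signal was 31.6 to 53.9 on mock arrays and 20.1 to 30.2 on Bcl11b arrays before normalization, while the number of detected probes was similar (10121 to 10784 and 10342 to 10644). Bcl11b replicate 4 correlated with the mean of its group's other arrays at 0.935, against 0.987 to 0.988 for the other Bcl11b arrays and 0.962 to 0.978 for the mock arrays. The only Bcl11b probe was not detected on any array, so these arrays do not show the transfected gene. The study assessed transfection separately, in duplicate sets of cells, by counting fluorescent cells and by quantitative PCR of Bcl11b mRNA. Of 35 matched cell type markers, 7 were detected. Among them were the progenitor markers Nes, Sox2 and Vim, the neuronal marker Map2 and the fibroblast markers Col1a1, Col3a1 and Pdgfrb. None of the 5 matched medium spiny neuron markers (Ppp1r1b, Drd1a, Drd2, Tac1 and Adora2a) was detected. The study did find Ppp1r1b mRNA in this cell line by PCR, so a marker undetected here is not shown to be absent. No astrocyte, oligodendrocyte, microglia or endothelial marker was detected. The progenitor markers Pax6 and Msi1 and the fibroblast markers Col1a2 and Thy1 were not detected on any array. The same held for the neuronal markers Tubb3, Snap25 and Syt1, so Map2 was the only matched neuronal marker with a detected signal. No detected marker probe passed the adjusted threshold, but the probe of Pdgfrb and second probes of Nes and Sox2 passed the looser one. For the brightest probe of each of the 7 markers the log2 difference ran from -0.87 for Col3a1 to 0.22 for Col1a1, with -0.49 for Pdgfrb, and second probes of Nes and Sox2 gave 0.43 and -0.71. Their part in the results below was not tested.

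**Figure D1:**
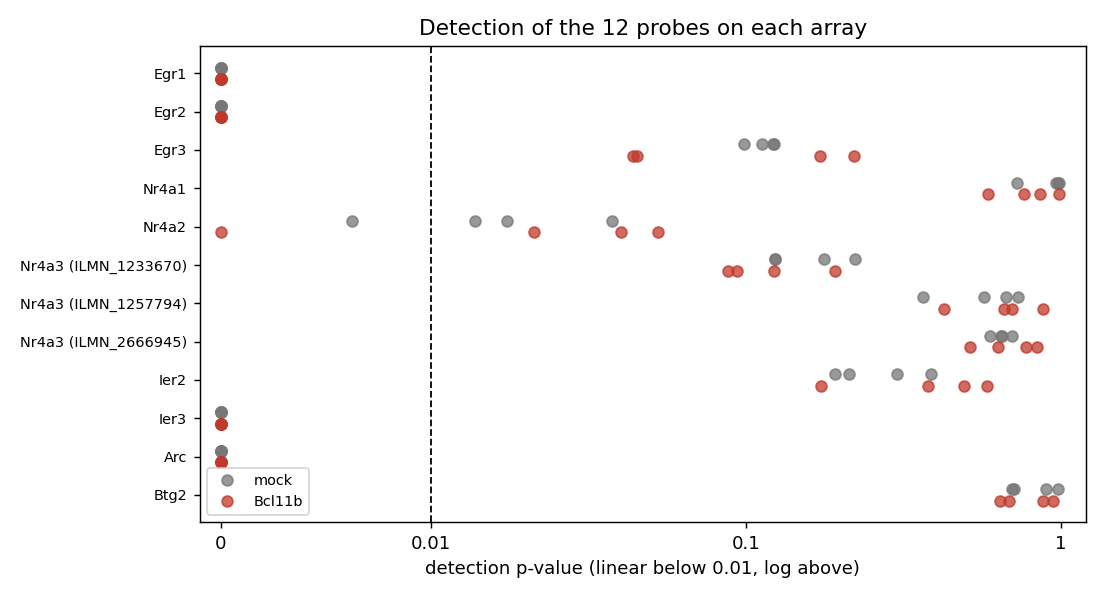
Detection p-value of each of the 12 probes on each array (x axis, linear below 0.01 and logarithmic above), with mock arrays in grey, Bcl11b arrays in red and the limit of 0.01 as a dashed line. Egr1, Egr2, Ier3 and Arc lie at 0 on all 8 arrays, Nr4a2 straddles the limit, and the other 7 probes lie to the right of it on every array.

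Egr1 encodes the zinc finger factor also known as Zif268 or Krox-24. Its log2 normalized signal on the mock arrays, in replicate order, was 12.57, 12.92, 12.59 and 12.88, and on the Bcl11b arrays 12.88, 12.88, 12.72 and 13.31. The groups overlapped, although Bcl11b replicate 4 was above every other array. The means were 12.74 ± 0.18 (SD, n = 4) and 12.95 ± 0.25 (SD, n = 4), a log2 difference of 0.21 (standard error 0.15, 95% interval -0.15 to 0.57). Neither test separated the groups (adjusted p = 0.765 from limma, and p = 0.229 by a two-sided exact permutation test over the arrays). As in all results from these bulk samples, fewer expressing cells and less RNA per cell cannot be told apart. The size of the difference for Egr1 depended on the scaling. Division by the array median in place of quantile normalization gave 0.49 (95% interval 0.26 to 0.71, unadjusted p = 0.00158, adjusted p = 0.154, limma), and no normalization gave -0.26, where the median of all probes was -0.49. Without Bcl11b replicate 4 the difference was 0.09.

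Egr2, also called Krox-20, is the factor that controls myelination in Schwann cells and segmentation of the hindbrain. Its log2 signal was 8.81, 8.57, 8.94 and 9.03 on the mock arrays and 8.82, 8.85, 8.41 and 8.87 on the Bcl11b arrays. Bcl11b replicate 3 was the lowest of the 8, and the other 3 Bcl11b arrays lay within the range of the mock arrays. From 8.84 ± 0.20 (SD, n = 4) to 8.74 ± 0.22 (SD, n = 4), the log2 difference was -0.10 (standard error 0.14, 95% interval -0.45 to 0.25, adjusted p = 0.949 from limma). Without Bcl11b replicate 3 it was 0.01. Egr3, the third Egr gene, had detection p-values of 0.0439 to 0.221, so no fold change is given for it. The related Egr4 was not detected either.

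The Nr4a receptors are nuclear receptors that act without a known physiological ligand. Nr4a2 (Nurr1), which is needed to form midbrain dopamine neurons, gave log2 signals of 5.94, 6.07, 6.20 and 6.26 on the mock arrays and 5.49, 5.68, 6.19 and 6.84 on the Bcl11b arrays. It was detected on mock replicate 4 (detection p-value 0.00627) and on Bcl11b replicate 4, which hold the highest value of their groups. The lowest and the highest of the 8 values were both on Bcl11b arrays. The means were 6.12 ± 0.14 (SD, n = 4) and 6.05 ± 0.60 (SD, n = 4), with a log2 difference of -0.07 (standard error 0.30, 95% interval -0.79 to 0.66, adjusted p = 1 from limma). The difference was 0.12 without Bcl11b replicate 1 and -0.33 without Bcl11b replicate 4. Since the dimmest detected log2 signal of an array was 6.19 to 6.59, most of these values lie at the edge of detection.

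Nr4a1 (Nur77) had a signal below 0 on all 8 arrays after background subtraction, with detection p-values of 0.59 to 0.991. The 3 probes of Nr4a3 (NOR-1) had detection p-values of 0.0877 to 0.222 (ILMN_1233670), 0.367 to 0.878 (ILMN_1257794) and 0.515 to 0.841 (ILMN_2666945). The probes of Nr4a1 and Nr4a3 thus showed no signal above background in either group, and no fold change is given. A silent probe does not by itself show a low level of the transcript. For Myc, for example, 1 probe was detected on no array and the other on all 8.

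Ier3 (also called IEX-1) is a stress-inducible protein that affects apoptosis and ERK signaling. Its log2 signal was 12.21, 11.92, 12.32 and 11.68 on the mock arrays and 12.04, 12.10, 12.24 and 11.68 on the Bcl11b arrays. Replicate 4 was the lowest in both groups, and the groups overlapped throughout. The means were 12.03 ± 0.29 (SD, n = 4) and 12.02 ± 0.24 (SD, n = 4), a log2 difference of -0.02 (standard error 0.18, 95% interval -0.46 to 0.43, adjusted p = 1 from limma). The interval reaches past the log2 limit of 0.32 on both sides, so the data bound a change of Ier3 only loosely. Ier2, a nuclear protein of the same early response, was not detected, with detection p-values of 0.173 to 0.585.

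Arc encodes an activity-regulated protein of the postsynaptic density that promotes the removal of AMPA receptors from synapses. Its log2 signal was 8.96, 8.68, 8.79 and 8.73 on the mock arrays and 9.02, 9.13, 8.96 and 9.29 on the Bcl11b arrays. Every Bcl11b array was above every mock array, but the lowest Bcl11b value exceeded the highest mock value by only 0.001. Such a gap between the groups, in the higher direction, was found in 2.5% of the 9360 probes detected on all 8 arrays. The means were 8.79 ± 0.12 (SD, n = 4) and 9.10 ± 0.14 (SD, n = 4), a log2 difference of 0.31 (standard error 0.09, 95% interval 0.09 to 0.53, 1.24-fold).

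For Arc the unadjusted limma p was 0.0129, the lowest of the 5 detected genes, and 10.4% of all probes had an unadjusted p under 0.05. The adjusted p was 0.301, so Arc did not pass the threshold over all probes. The exact permutation test over the arrays (two-sided, 70 regroupings, n = 4 against 4) gave p = 0.0286, the smallest it can give. Leaving out 1 array at a time gave log2 differences of 0.25 to 0.36, and division by the array median gave 0.35. Without normalization the value was -0.40 and lay 0.09 above the median of all probes. Btg2, an antiproliferative protein that binds the CCR4-NOT deadenylase, was not detected, with a signal below 0 on all 8 arrays.

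**Figure D2:**
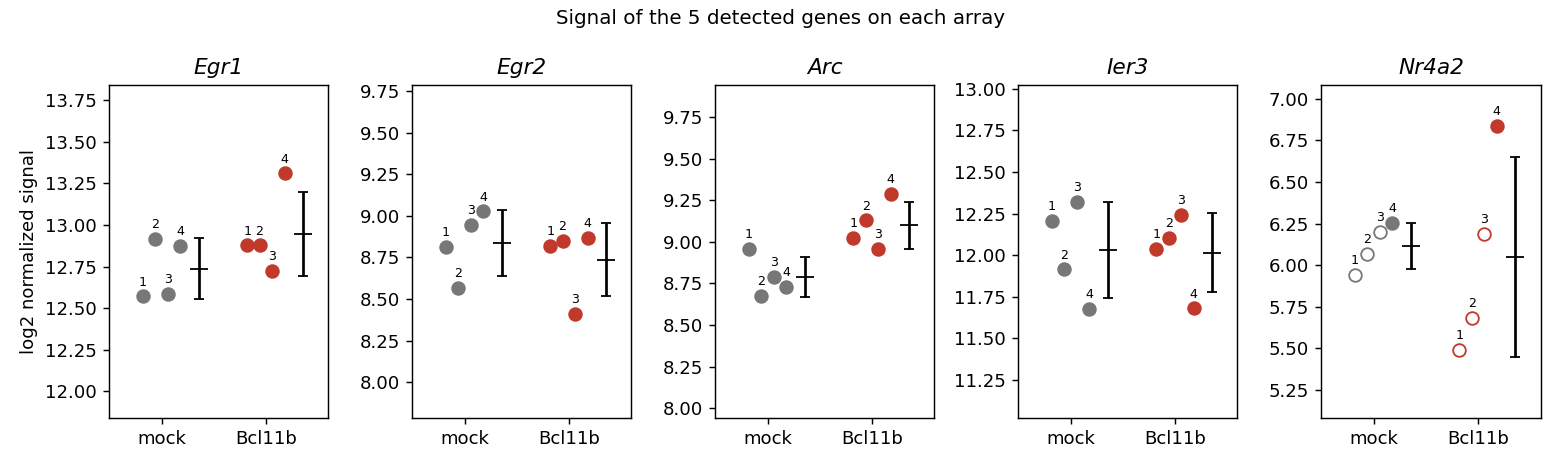
Log2 normalized signal of the 5 detected genes on each of the 8 arrays (y axes all span 2 log2 units but start at different values), with replicate numbers beside the points. Filled points are detected and open points are not, and the bars give the mean ± SD of 4 arrays. The groups overlap for Egr1, Egr2, Ier3 and Nr4a2, and for Arc the Bcl11b arrays lie above the mock arrays.

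Across the 4 genes detected on all 8 arrays, 2 were higher and 2 were lower in Bcl11b cells, with a median log2 difference of 0.10. Over the 9360 probes detected on all 8 arrays the median was -0.03, the median standard error was 0.18 and 53.4% were lower. The standard errors of the 4 genes ran from 0.09 for Arc to 0.18 for Ier3.

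The 4 genes were also compared with each other over the 8 arrays. Of the 6 pairs, 1 passed a test of correlation. Egr1 was lower on arrays where Ier3 was higher (Pearson r = -0.82, exact permutation p = 0.00615 over 40320 pairings and 0.0369 after Benjamini-Hochberg adjustment, and Spearman rho = -0.68, exact p = 0.0701 and 0.421 after adjustment). Without the 2 arrays farthest from the median of Egr1 (Bcl11b replicate 4 and mock replicate 1) r was -0.76, and it was -0.89 within the mock and -0.99 within the Bcl11b arrays. The relation depended on the scaling, with r = -0.82 under neqc, -0.01 after division by the array median and 0.47 without normalization. For the other 5 pairs, r lay between -0.32 and 0.53 under quantile normalization, with adjusted exact p-values of 0.537 or higher. These values moved with the scaling as well. Egr1 and Arc, at 0.53, had r = 0.85 after division by the array median, and without normalization the 5 pairs had r of 0.65 to 0.96. The 3 probes whose pattern was most like that of Arc, among 9359 others detected on all 8 arrays, were those of Alg12 (r = 0.96), Necap1 (r = 0.95) and Ptx3 (r = 0.93), which is a description over 8 arrays.

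The 10 genes are part of a wider early response, and 66 further genes of that response, its upstream factors and its partners were examined in the same fit. Of these, 63 were on the arrays and 49 were detected on at least 1 array. Of the 49 detected genes, 11 (22.4%) passed the looser threshold, 4 higher and 7 lower. The share was 14.8% among the 11755 probes that were detected anywhere. At an adjusted p under 0.10, 3 were higher (0.354% of all probes, detected or not, were) and none was lower. The median log2 difference of the 44 genes detected on all 8 arrays was 0.01, with 22 higher and 22 lower.

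The 3 genes past the adjusted threshold encode bZIP factors. Fos, a subunit of AP-1, had log2 signals of 7.86, 7.45, 7.29 and 7.51 on the mock arrays and 9.05, 9.22, 8.96 and 9.26 on the Bcl11b arrays, and the latter lay well above the former. Atf3, a stress-induced factor, was at 8.26, 8.47, 7.92 and 8.06 on the mock arrays and at 9.67, 9.44, 9.78 and 9.67 on the Bcl11b arrays. Maff, a small Maf protein, was at 7.99, 7.62, 7.69 and 7.42 and at 8.68, 8.62, 8.87 and 8.53 (1.99-fold, adjusted p = 0.0558 from limma), and its second probe was not detected. For Maff the adjusted threshold was no longer passed without mock replicate 3 (adjusted p = 0.146) or 4 (0.116) or without Bcl11b replicate 1 (0.183), 2 (0.162) or 3 (0.153), all from limma. Fos, Atf3 and Maff had adjusted p-values of 0.143, 0.125 and 0.504 from limma without normalization.

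Of the other AP-1 genes, Fosb differed by 0.05 on the log2 scale, Fosl1 by -0.08, Jun by 0.17, Junb by 0.40 and Jund by 0.69, and none passed the adjusted threshold (adjusted p from 0.453 to 1, limma). Dusp6, a phosphatase that inactivates ERK, was 0.40 higher in Bcl11b cells (adjusted p = 0.371, limma). The 7 genes lower at the looser threshold were Dusp4 (-0.34), Plk3 (-0.43), Nfil3 (-0.43), Mcl1 (-0.45), Bhlhe40 (-0.39, listed under its older symbol Bhlhb2), Elk3 (-0.32) and Nab2 (-0.39). None of the 7 passed the adjusted threshold. Second detected probes for Dusp4 and Elk3 gave -0.10 and -0.003.

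Among the partners of the 10 genes, Nab2 is a corepressor that binds Egr factors and is itself induced by them. Its log2 signal was 7.73 ± 0.28 (SD, n = 4) in mock and 7.34 ± 0.05 (SD, n = 4) in Bcl11b cells (unadjusted p = 0.029 and adjusted p = 0.391, limma). The brightest of the Nab1 probes differed by -0.14 (adjusted p = 0.937, limma). Of the RXR genes, whose products pair with Nr4a1 and Nr4a2, only Rxrb was detected, at a difference of -0.17 for its brighter probe and 0.45 for its dimmer one, neither past a threshold. Of the Btg2 partners, Cnot7 and Prmt1 were detected and did not pass a threshold. The brighter probe of Srf, the factor that binds the CArG box, differed by -0.06 (adjusted p = 0.965, limma). Its dimmer probe was detected on 1 mock and 4 Bcl11b arrays and differed the other way by 2.08 with overlapping groups (adjusted p = 0.542, limma), a size that depends on mock values near background.

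**Figure D3:**
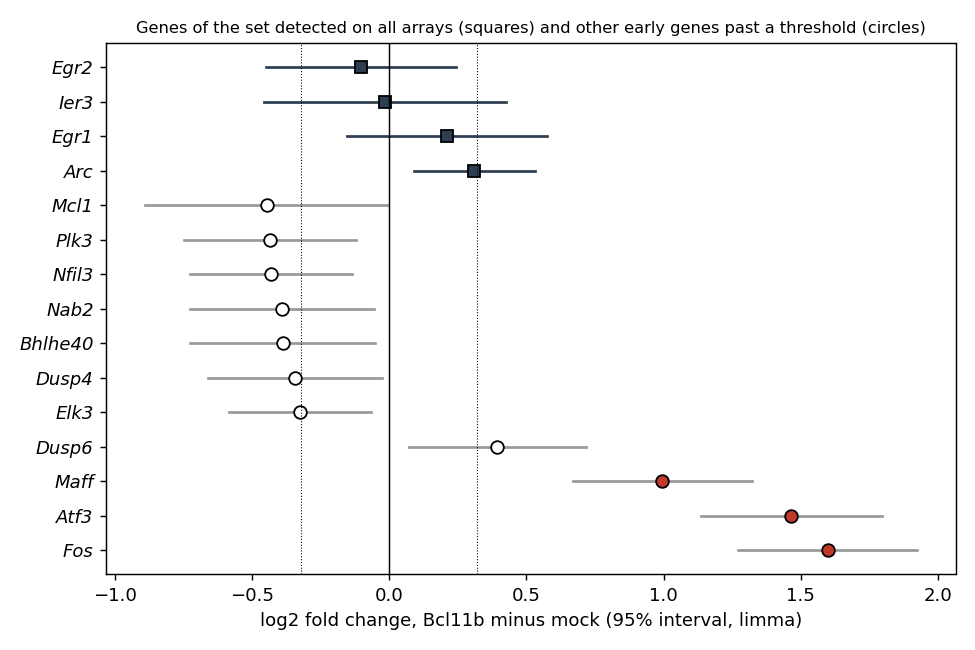
Log2 fold change (x axis, Bcl11b minus mock) with its 95% interval from limma for the 4 genes of the set detected on all 8 arrays (squares) and for the 11 other listed genes past the looser threshold (circles, red where the adjusted p was under 0.10). Dotted lines mark a log2 change of 0.32 in either direction. The squares lie inside the dotted lines, but the interval of each of these 4 genes crosses a dotted line. Fos, Atf3 and Maff lie far to the right of both lines.

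The change of Fos, Atf3 and Maff was set beside that of the 4 genes detected on all arrays through the difference of the log2 signals within each array. The 3 genes were chosen after their values had been seen, because they passed the adjusted threshold, so these differences are a description and no test is given. The change of Fos exceeded that of Egr1 by 1.39 (standard error 0.19), that of Egr2 by 1.70 (0.18), that of Ier3 by 1.61 (0.26) and that of Arc by 1.29 (0.09) on the log2 scale. For Atf3 the excess was 1.26 over Egr1, 1.57 over Egr2, 1.48 over Ier3 and 1.16 over Arc. For Maff it was 0.79 over Egr1, 1.10 over Egr2, 1.01 over Ier3 and 0.68 over Arc.

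In 11 of these 12 comparisons the within-array differences of the Bcl11b and mock arrays did not overlap, and the exception was Maff against Egr1. Under quantile normalization Fos, Atf3 and Maff were by themselves higher on every Bcl11b array than on every mock array. Little overlap was therefore to be expected, and the count adds no separate support. With neqc the 12 differences lay between 0.64 and 1.62. Without normalization they lay between 0.54 and 1.69, and division by the array median gives the same values, since a factor common to an array cancels. Without Bcl11b replicate 4 they were 0.80 to 1.70. The comparisons share the same arrays and are not independent. Whether the 5 undetected genes differed from Fos in this way cannot be seen here.

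**Figure D4:**
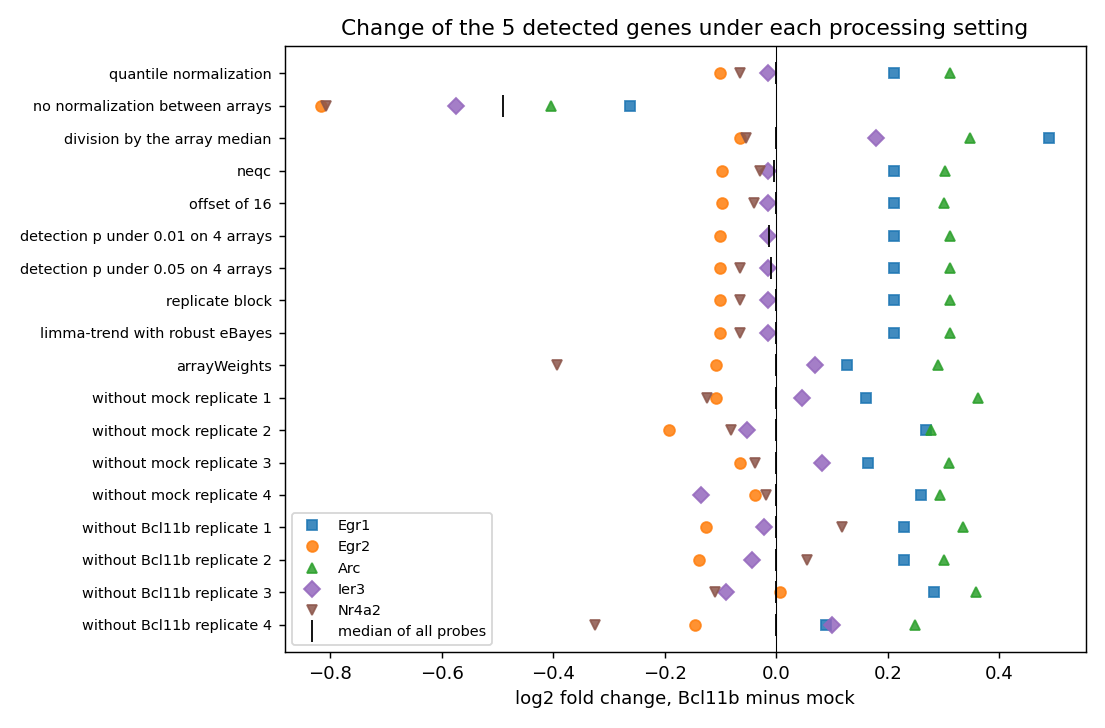
Log2 fold change (x axis, Bcl11b minus mock) of the 5 detected genes under quantile normalization and each alternative (y axis), with the median of all probes as a vertical tick. Arc lies to the right of 0 in every row but the one without normalization, where the median of all probes itself is at -0.49, and Nr4a2 is missing from the row with detection p under 0.01 on 4 arrays, where it was left out.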

How the data were processed

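The expression profiles of 4 Bcl11b-transfected and 4 mock-transfected sets of STHdhQ7 cells were examined, grouped by the sample labels. The authors deposited 1 intensity per probe and array, the average bead signal from GenomeStudio after background subtraction and without normalization between arrays. The deposited p-values are detection p-values against negative control beads, and a limit of 0.01 was used. The number of arrays sets the precision. A check for copied arrays found 0 probes with the same signal on 2 arrays. The sources used here name no slide or scan batch.

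Signals were quantile-normalized, as in the study's methods, set to at least 1 and transformed to log2. Groups were compared with limma 3.58.1 (R 4.3.3, lmFit and eBayes) over all 25697 probes with Benjamini-Hochberg adjustment, at an adjusted p of 0.10, or at a p of 0.05 with a log2 change of at least 0.32 (the looser threshold, after the study). The normalization and fit were tested on simulated data with noise drawn independently for each array. Of 100 detected probes given a log2 change of 0.5, 14 passed the adjusted threshold and 69 the looser one. Of 100 given a log2 change of 1, 30 passed the adjusted threshold and 87 the looser one. Among the unchanged probes, 10 passed the adjusted threshold. A real change of these sizes can thus miss the adjusted threshold. Exact permutation tests were two-sided. Probes detected on no array received no fold change. A gene with several probes is represented by the brightest. Other genes were named if they passed either threshold, or as partners of the 10, and Egr4, Srf and the remaining AP-1 genes were added after their values were seen. Of 66 other listed genes, 12 were matched by an older symbol and 3 (Fosl2, Dusp5 and Elk1) were not matched. The genes and gene lists were chosen with earlier results of these data known. Alternatives were 4 other scalings (no normalization, neqc, an offset of 16, and division by the array median), detection filters at 0.01 and 0.05 on 4 arrays, limma-trend with robust eBayes, arrayWeights, a replicate block, a threshold on p alone, and 1 array left out at a time. Figures were drawn with matplotlib 3.10.9.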

Additional observations from a re-analysis of the deposited data

Results flagged for a closer look

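Among the 16 probes examined (the 5 detected genes and the 11 other genes past a threshold), 32 groups of 4 arrays were searched for a value standing apart from its group, and 2 were found. The limit used, Dixon's 95% critical value, is one that chance alone passes in about 1 in 20 groups. For Egr2, Bcl11b replicate 3 had a log2 signal of 8.41 against 8.82 to 8.87 on the other Bcl11b arrays. For Plk3 the same array had 9.12 against 9.36 to 9.38.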

How the results depend on the processing

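The alternatives were counted for the 5 probes of the set detected on at least 1 array, and not for its undetected probes. None of the 5 passed the adjusted threshold under any alternative. The number past the looser threshold was 0 with quantile normalization, 1 (Egr2) without normalization, 2 (Egr1 and Arc) after division by the array median, and 1 (Arc) with no fold threshold. It was 0 to 1 with 1 array left out, and Arc passed without mock replicate 1 and without Bcl11b replicate 1 or 3. Among all probes, 252 passed the adjusted threshold (91 higher and 161 lower), with 57 without normalization, 146 after division by the array median (100 higher and 46 lower), 413 with neqc, 45 under limma-trend (35 higher and 10 lower), 642 with arrayWeights, and 87 to 637 with 1 array left out, the highest without mock replicate 2. The looser threshold was passed by 2317 probes, and by 6963 without normalization, which moved the median log2 difference of all probes to -0.491. Of the other listed genes, 11 passed it, 21 without normalization and 6 to 12 with 1 array left out (7 without mock replicate 3 or Bcl11b replicate 2, and 6 without Bcl11b replicate 1 or 3).

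The direction reversed for Egr1 (-0.263) and Arc (-0.404) without normalization, and relative to the median of all probes these values were 0.228 and 0.087. It reversed for Egr2 without Bcl11b replicate 3 (0.007), for Nr4a2 without Bcl11b replicate 1 (0.118) or 2 (0.055), and for Ier3 after division by the array median (0.178), with arrayWeights (0.07) and without mock replicate 1 (0.045), mock replicate 3 (0.082) or Bcl11b replicate 4 (0.099). With 1 array left out the values were -0.193 to 0.007 for Egr2, -0.325 to 0.118 for Nr4a2 and -0.136 to 0.099 for Ier3. The cause was not tested.

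With the replicate number as a block, 45 probes passed the adjusted threshold (23 higher and 22 lower). None of the 5 detected probes of the set passed either threshold. With this block, Fos, Atf3 and Maff no longer passed the adjusted threshold (adjusted p = 0.152, 0.211 and 0.187, limma) at unchanged log2 differences of 1.598, 1.466 and 0.995. The labels give the groups the same replicate numbers, but deviations from the group means of same-numbered arrays correlated at 0.677, -0.63, 0.182 and 0.695 over 9360 probes, and 4 of the 8 arrays correlated best with their own number, so the numbers were not taken to pair the samples. Maff also failed the adjusted threshold under limma-trend (adjusted p = 0.143, limma). Nr4a2 gave no value under the filter at 0.01 on 4 arrays. Signal over background limits Egr3, Nr4a1, Nr4a2, Nr4a3, Ier2 and Btg2.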
